A study of Mus musculus with 16 samples.

Results

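Immunoglobulin gene segments are the germline pieces from which antibody chains are assembled. The members described here were all rows of the gene count table whose annotated biotype is an immunoglobulin gene and not a pseudogene, which gave 268 of 54532 genes. They lie on chromosome 12 (146 heavy chain genes), chromosome 6 (110 kappa genes) and chromosome 16 (12 lambda genes), with GRCm38 coordinates. By class they were 8 heavy chain constant genes, 1 kappa and 4 lambda constant genes, 115 heavy chain, 104 kappa and 3 lambda variable genes, 14 joining segments and 19 diversity segments. Of the 268, 215 had at least 1 count in some library, 53 had none, and 115 passed the filter on low counts and entered the tests across genes.

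A B cell joins a variable, a joining and, for the heavy chain, a diversity segment into 1 exon that is transcribed with a constant region gene. The heavy chain constant gene sets the isotype: Ighm and Ighd are used together by B cells that have not switched class, and Igha, Ighg and Ighe after class switching. Plasma cells, the antibody-secreting descendants of B cells, hold very large amounts of this RNA. In the normal mouse intestine most of them make IgA, which is joined by J chain (Jchain) and carried across the epithelium by the polymeric immunoglobulin receptor (Pigr).

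The libraries were poly-A RNA from tumours that grew for 15 days from MC38 cells, a mouse colon carcinoma line, placed in the colon wall of C57BL/6 mice. The tumour was the MSI (microsatellite instability) or the CIN (chromosomal instability) form of the line, and every mouse received bone marrow derived dendritic cells on days 1, 6 and 12. These cells had been exposed for 30 minutes, with a lipid transfection reagent, to 2 µg of DNA that was either free cytosolic DNA or micronuclei, small membrane-bound bodies of chromosome fragments. The 8 groups of 2 libraries were MSI tumours given MSI free DNA, MSI micronuclei, CIN free DNA or CIN micronuclei, and CIN tumours given the same 4. RNA of 3 biological replicates was pooled in equal amounts. Since whether each library is a separate pool is not stated, p-values measure the spread between libraries, part of which may be technical. Mice with dendritic cells that took up no DNA were not analysed here. Libraries are named by tumour, DNA source, DNA form and replicate number.

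Library totals ran from 11561955 to 17937501 counts. Transcripts of colon epithelium and of skeletal muscle varied widely. The 2 libraries with the lowest immunoglobulin shares were the 2 lowest in colon epithelium and were among the 5 rich in skeletal muscle. The summed level of the 16 colon epithelium markers was 609.1 CPM (counts scaled by library size with TMM factors) in MSI tumour CIN micronuclei 1 and 147.5 CPM in CIN tumour MSI micronuclei 1, against 1298 to 13270 CPM in the other 14 libraries. Skeletal muscle markers summed to 109.7 to 577.4 CPM in 5 libraries (both of those, CIN tumour MSI micronuclei 2, CIN tumour MSI free 2 and CIN tumour CIN free 2) and to 3.43 to 31.3 CPM in the other 11. CIN tumour MSI micronuclei 1 held 105 immunoglobulin counts in all, so its composition is imprecise. Fewer cells of a type and less RNA per cell cannot be told apart in bulk RNA.

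The sequences below show what sets the most counted isotype apart from IgG at the end of the chain. They are the last 60 coding bases before the stop codon of the secreted form, from the GENCODE M21 transcripts, given 5′ to 3′ on the coding strand. Capitals mark a cysteine codon next to the last, through which IgA and IgM chains bind J chain; the IgG chains shown lack it there.
Igha (chr12:113258771-113258830, minus strand): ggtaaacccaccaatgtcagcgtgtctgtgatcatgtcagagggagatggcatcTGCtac
Ighm (chr12:113420870-113420929, minus strand): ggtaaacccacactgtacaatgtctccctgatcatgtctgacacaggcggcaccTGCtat
Ighg1 (chr12:113328979-113329038, minus strand): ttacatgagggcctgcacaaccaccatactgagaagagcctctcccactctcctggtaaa
Ighg2c (chr12:113287392-113287451, minus strand): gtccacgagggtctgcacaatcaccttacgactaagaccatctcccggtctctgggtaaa

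A selection of abundant variable genes of each chain is shown by the last 60 bases of their exon, where the joining segment is attached. Capitals mark the last cysteine codon in frame, the start of the third hypervariable loop. The pairs Igkv1-117 with Igkv1-110, and Iglv1 with Iglv2, are close copies, which limits how reads can be told apart.
Ighv1-26 (chr12:114788372-114788431, minus strand): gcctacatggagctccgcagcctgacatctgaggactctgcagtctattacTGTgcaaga
Igkv10-96 (chr6:68631963-68632022, minus strand): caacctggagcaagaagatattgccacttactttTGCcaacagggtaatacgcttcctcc
Igkv1-117 (chr6:68121768-68121827, plus strand): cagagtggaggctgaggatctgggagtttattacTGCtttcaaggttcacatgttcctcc
Igkv1-110 (chr6:68271208-68271267, plus strand): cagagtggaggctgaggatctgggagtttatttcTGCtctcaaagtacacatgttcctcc
Iglv1 (chr16:19085017-19085076, minus strand): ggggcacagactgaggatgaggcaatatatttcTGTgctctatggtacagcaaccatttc
Iglv2 (chr16:19260401-19260460, minus strand): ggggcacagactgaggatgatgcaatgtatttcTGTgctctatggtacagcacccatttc

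The members held 292668 counts over the 16 libraries. Heavy chain constant genes took 60.6% of them, Igkc, the only kappa constant gene, 29.4%, and the lambda constant genes 1.86%. Kappa variable genes took 4.28%, heavy chain variable genes 2.89% and lambda variable genes 0.815%. Joining segments held 375 counts and diversity segments 3, too few to be compared.

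The share of all gene counts that fell on immunoglobulin genes varied more within groups than between tumour types. MSI tumours had shares of 0.150% and 0.201% after MSI free DNA, and 0.0672% and 0.217% after MSI micronuclei. They had 0.0629% and 0.156% after CIN free DNA, and 0.0126% and 0.188% after CIN micronuclei. The library numbered 2 was the higher in all 4 of these groups, and MSI tumour CIN micronuclei held the widest gap. CIN tumours had shares of 0.145% and 0.0639% after MSI free DNA, and 0.000908% and 0.0490% after MSI micronuclei. They had 0.0738% and 0.0835% after CIN free DNA, and 0.138% and 0.353% after CIN micronuclei. The library numbered 2 was the higher in 3 of these 4 groups, and the numbers are not stated to mark a batch. The lowest and the highest of the 16 libraries were both CIN tumours. The 95% Wilson interval of the lowest was 0.000750% to 0.00110% and that of the highest 0.350% to 0.356%. Such intervals cover counting error only.

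MSI tumours averaged 0.132% ± 0.0748 and CIN tumours 0.113% ± 0.107 (SD, n = 8 each), a difference well inside the spread. Without CIN tumour CIN micronuclei 2 the difference of 0.0183 percentage points became 0.0525, and without CIN tumour MSI micronuclei 1 it became 0.00222. Libraries given MSI DNA averaged 0.112% ± 0.0775 and libraries given CIN DNA 0.134% ± 0.105 (n = 8 each). Free DNA gave 0.117% ± 0.0523 and micronuclei 0.128% ± 0.120 (n = 8 each). Both of these differences changed sign when CIN tumour CIN micronuclei 2 was left out, to 0.00957 and 0.0209 percentage points. T cell receptor segments, counted in the same way, held 0.00172% to 0.00443% of counts, a much narrower range. Immunoglobulin pseudogenes had 0 to 16 counts per library.

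**Figure D1:**
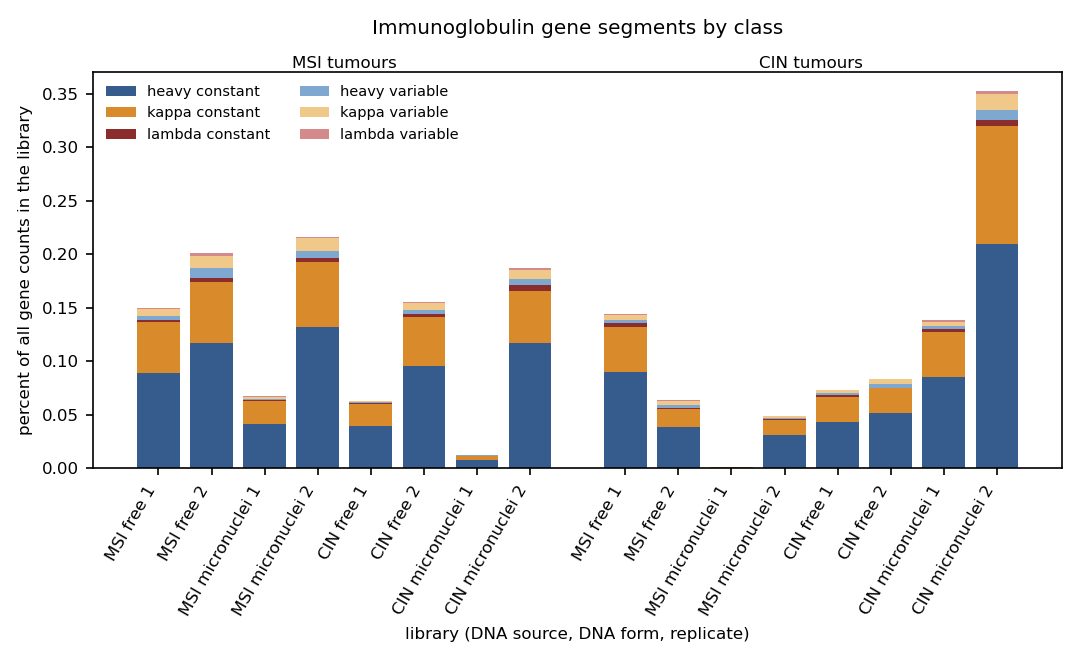
Percent of all gene counts that fell on immunoglobulin gene segments in each of the 16 libraries, stacked by class, with MSI tumours on the left and CIN tumours on the right. Constant region genes make up most of every bar, and the shares span 0.000908% to 0.353% within CIN tumours alone.

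Igha, the constant region of IgA, led the heavy chain constant counts in 15 of 16 libraries. On the scale of CPM it was 710.1 and 1093 in MSI tumours given MSI free DNA, 320.0 and 1195 with MSI micronuclei, 364.1 and 911.3 with CIN free DNA, and 41.1 and 1089 with CIN micronuclei. In CIN tumours it was 847.7 and 331.0 CPM with MSI free DNA, 0.354 and 286.1 with MSI micronuclei, 314.6 and 522.2 with CIN free DNA, and 793.7 and 1927 with CIN micronuclei. The tumour types overlapped over almost the whole range. The mean was 715.3 ± 428.4 CPM in MSI tumours and 627.8 ± 594.1 CPM in CIN tumours (SD, n = 8 each).

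As a share of heavy chain constant counts, Igha had a median of 91.7% over the 16 libraries. In MSI tumours the share ran from 51.9% to 93.3% with a median of 90.7%, and in CIN tumours from 5.06% to 97.4% with a median of 92.3%. The 2 libraries with the lowest shares were those with the least colon epithelium RNA. In MSI tumour CIN micronuclei 1 it was 51.9% (95% Wilson interval 49.1% to 54.6%), and in CIN tumour MSI micronuclei 1 it was 5.06% (4 of 79 counts, 1.99% to 12.3%). Next came CIN tumour CIN free 1 with 73.5%. With counts divided by gene length the median share was 87.8% in MSI tumours and 89.8% in CIN tumours. The mean difference between MSI and CIN tumours in the share of counts was 4.89 percentage points, and it became -5.73 without CIN tumour MSI micronuclei 1.

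Ighm and Ighd, the constant genes of unswitched B cells, together held a median of 6.11% of heavy chain constant counts. The share was 36.5% in MSI tumour CIN micronuclei 1 and 81.0% in CIN tumour MSI micronuclei 1, where Igha was lowest. It was also above the rest in MSI tumour MSI micronuclei 1 (17.4%) and CIN tumour CIN free 1 (20.96%). Among MSI tumours Ighm was highest in CIN micronuclei 2, at 59.4 CPM. Among CIN tumours it was highest in CIN micronuclei 2, at 83.5 CPM, followed by 52.9 CPM in CIN free 1, and it was lowest in MSI micronuclei 1 (5.04 CPM). Ighd was highest in MSI tumour CIN micronuclei 2, at 43.0 CPM, and lowest in CIN tumour MSI micronuclei 1, at 0.619 CPM. The ratio of Ighd to Ighm counts was 0.302 to 0.723 in the libraries of MSI tumours and 0.123 to 0.696 in those of CIN tumours. Ighm averaged 0.68 log2 units higher in MSI than in CIN tumours (SE 0.48) and Ighd 0.87 (SE 0.60), and neither passed edgeR's quasi-likelihood test (Benjamini-Hochberg adjusted p = 0.418 and 0.410).

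The 4 IgG genes together held a median of 2.00% of heavy chain constant counts. Above 5% were MSI tumour MSI free 1 (9.85%), MSI tumour CIN micronuclei 1 (11.1%), CIN tumour MSI free 2 (8.83%), CIN tumour MSI micronuclei 1 (13.9%, from 79 counts) and CIN tumour CIN free 1 (5.50%). Ighg1 was 47.2 CPM in MSI tumour MSI free 1 and 21.03 CPM in CIN tumour MSI free 2, with no other library above 15.03 CPM. Ighg2c was 16.1 CPM in MSI tumour MSI free 1, and 5.70 and 5.09 CPM in MSI tumour MSI free 2 and CIN tumour MSI free 2. No library of another group passed 3.51 CPM of Ighg2c. The share of IgG counts from Ighg1 differed between the libraries rich in IgG. It was 56.5% (Wilson interval 53.6% to 59.3%) in MSI tumour MSI free 1 and 61.9% (57.8% to 65.7%) in CIN tumour MSI free 2, but 15.8% (12.7% to 19.6%) in CIN tumour CIN free 1, where Ighg2b led with 16.9 CPM. Ighg3 never exceeded 2.04 CPM. Ighe, the constant region of IgE, had 43 counts in all, from 9 of the 16 libraries, and at most 9 in any library.

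**Figure D2:**
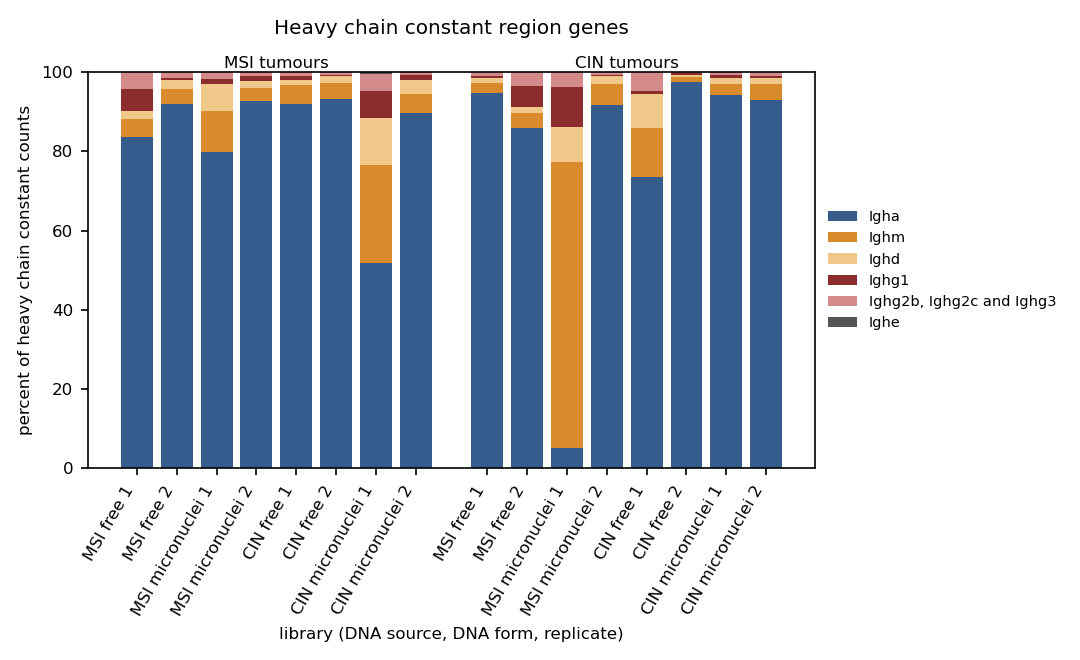
Heavy chain constant counts of each library divided by gene, in percent, with MSI tumours on the left and CIN tumours on the right. Igha fills at least 73.5% of each bar except in MSI tumour CIN micronuclei 1 (51.9%) and CIN tumour MSI micronuclei 1 (5.06%, from 79 counts), where Ighm and Ighd take 36.5% and 81.0%.

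Among light chains, Igkc took most of the constant counts in every library. The kappa share was 93.3% ± 2.47 in MSI tumours and 94.8% ± 1.66 in CIN tumours (SD, n = 8 each). It was lowest in both libraries of MSI tumours given CIN micronuclei (88.6% and 90.4%) and highest in CIN tumour CIN free 2 (98.01%). The 2 lowest libraries differed strongly in depth, with 651 and 8731 light chain constant counts. Of the lambda genes Iglc1 was the most abundant per length, with a mean of 28.5 CPM per kb, against 11.7 for Iglc2, 5.98 for Iglc3 and 0.0498 for Iglc4. Iglc2 and Iglc3 share 96.2% of their coding bases, and 92.4% and 89.3% of their 50-base windows are unique among the members, so some of their reads may have been left uncounted or split. Iglc1 shares 73.4% of bases with Iglc2 and no such window. Per length, Igkc averaged 678.0 CPM per kb and Igha 251.7 CPM per kb.

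The ratio of light to heavy constant counts was 0.459 to 0.566 in 15 libraries. In CIN tumour MSI micronuclei 1 it was 0.241, from 19 light chain and 79 heavy chain counts. The ratio depends on gene lengths and is therefore compared only between libraries.

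Partner genes of antibody production were compared with the constant genes over the 16 libraries on log2 CPM. These 42 relations were chosen after values had been seen, and p-values are from 100000 permutations (2 sides, 1e-05 the smallest they can give). Igha moved with Jchain (Pearson r = 0.987, Spearman rho = 0.947, permutation p = 1e-05 for each, Benjamini-Hochberg adjusted over the 42 to 3.5e-05 and 7e-05). The relation was r = 0.986 without the 2 libraries lowest in Jchain, and 0.993 within MSI and within CIN tumours. The count ratio of Igha to Jchain was 3.47 to 6.12 in 15 libraries, but 0.364 in CIN tumour MSI micronuclei 1. Igkc followed Jchain as closely (r = 0.992, rho = 0.947, permutation p = 1e-05 for each, adjusted 3.5e-05 and 7e-05).

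Igha also moved with Pigr (r = 0.890, rho = 0.841, permutation p = 1e-05 and 0.00013, adjusted 3.5e-05 and 0.0005). With Epcam, an epithelial surface protein, the values were r = 0.901 and rho = 0.829 (permutation p = 1e-05 and 0.00018, adjusted 3.5e-05 and 0.00058). Without the 2 libraries poorest in these transcripts r was 0.796 for Pigr and 0.733 for Epcam. Within MSI tumours r with Epcam was 0.854 and within CIN tumours 0.979. The part of colon tissue content in the level of Igha was not tested beyond these relations and a fit with a colon epithelium covariate.

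The unswitched isotypes moved with Cxcl13, a chemokine of lymphoid follicles that attracts B cells. Ighd followed it with r = 0.958 and rho = 0.941 (permutation p = 1e-05 for each, adjusted 3.5e-05 and 7e-05), and with r = 0.889 without the 2 libraries farthest from the median in Cxcl13. Within MSI tumours r was 0.876 and within CIN tumours 0.984. With Epcam Ighd gave r = 0.810 and rho = 0.732 (permutation p = 0.00053 and 0.0018, adjusted 0.0013 and 0.0043), and r = 0.650 without the 2 libraries lowest in Epcam. Differences between correlations were not tested. Ighm and Cxcl13 gave r = 0.910 and rho = 0.968 (permutation p = 1e-05 for each, adjusted 3.5e-05 and 7e-05), with r = 0.893 without those 2 libraries. Igha and Cxcl13 gave r = 0.883 and rho = 0.694 (permutation p = 0.00021 and 0.0038, adjusted 0.00055 and 0.0076), with r = 0.756 without them. In CIN tumour CIN free 1 B cell genes stood high, with Ms4a1 (CD20) at 19.5 CPM and Cd79a, a signalling chain of the B cell receptor, at 31.5, while Igha was 314.6 CPM. In CIN tumour CIN free 2 Ms4a1 was 2.11 CPM and Cd79a 2.85, with Igha at 522.2 CPM.

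Relations of Ighg1 with Jchain, Epcam and Cd3e did not pass adjustment over the 16 libraries. Ighg1 and Jchain gave r = 0.508 and rho = 0.426 (permutation p = 0.0459 and 0.1003, adjusted 0.0621 and 0.1359), with r = 0.330 without the 2 libraries lowest in Jchain. Ighg1 and Epcam gave r = 0.386 and rho = 0.329 (permutation p = 0.1395 and 0.2136, adjusted 0.1542 and 0.2564), with r = 0.079 without the 2 lowest in Epcam. With Cd3e, a chain of the T cell receptor complex, Ighg1 gave r = 0.416 and rho = 0.294 (permutation p = 0.1108 and 0.2715, adjusted 0.1369 and 0.3068), with r = 0.272 without the 2 libraries farthest from the median in Cd3e. Within MSI tumours that r was -0.438 and within CIN tumours 0.807 (permutation p = 0.2717 and 0.0148, unadjusted). Igha and Cd3e gave r = 0.178 and rho = -0.012 (permutation p = 0.4628 and 0.9695, adjusted 0.4741 and 0.9695), with r = 0.482 without those 2 libraries. The sign differed by tumour type, with r = -0.713 within MSI tumours and 0.391 within CIN tumours (permutation p = 0.0607 and 0.2732, unadjusted).

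**Figure D3:**
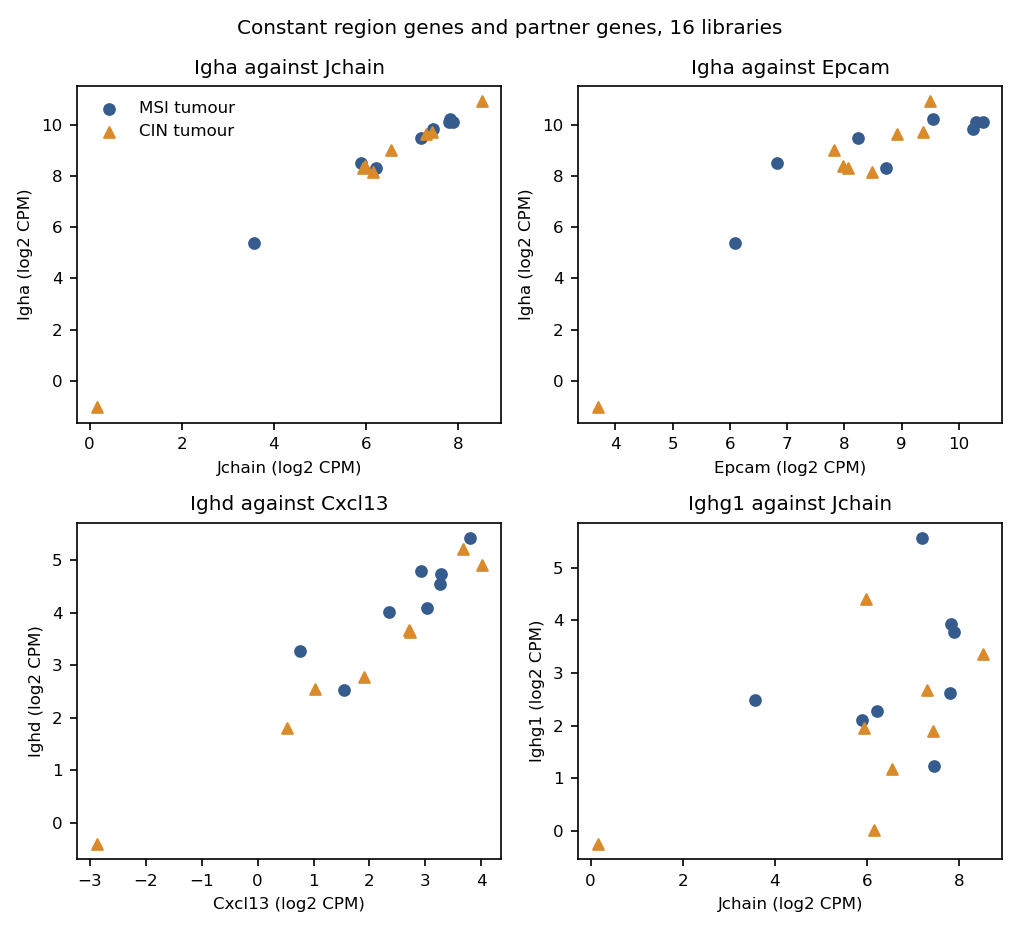
Log2 CPM of Igha against Jchain and Epcam, of Ighd against Cxcl13 and of Ighg1 against Jchain, with a point for each of the 16 libraries (circles for MSI tumours, triangles for CIN tumours). The first 3 panels rise along a line (r = 0.987, 0.901 and 0.958), while Ighg1 scatters against Jchain (r = 0.508).

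Other plasma cell genes carried less of this range. Mzb1, a chaperone of antibody secretion, ran from 0.796 CPM in CIN tumour MSI micronuclei 1 to 6.76 CPM in CIN tumour CIN micronuclei 2, the libraries lowest and highest in Igha. Xbp1 (121.2 to 233.0 CPM), Prdm1 (5.95 to 9.89) and Sdc1 (88.5 to 200.8) are regulators or surface markers of plasma cells that epithelial or tumour cells also express, and they varied much less. Tnfrsf17, the plasma cell receptor BCMA, reached 1.28 CPM and was too low to be tested. Of the 7 genes of B cell precursors and recombination, Rag1 had no count in any library and Igll1 reached 0.130 CPM in 1. Vpreb1, a surrogate light chain gene, reached 0.561 CPM and its relative Vpreb3 1.34 CPM, and of the 7 only Vpreb3 was abundant enough to be tested.

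The comparison of MSI with CIN tumours called none of the 115 members tested. Over all genes edgeR called 1089 of 18777, or 5.8%. DESeq2 called 0 members and 12.2% of all genes. With no filter on low counts edgeR called 1 of 215 members with any count and 3.29% of all genes. At an unadjusted p below 0.05 there were 6 members with edgeR and 13 with DESeq2. Of all 18777 genes 4144 were below it with edgeR and 4742 with DESeq2, a larger share than of the members. Of the members 96 had a positive log2 fold change, with a median of 0.93, beside 10468 of all 18777 genes and a median of 0.06. Igha differed by 0.59 (SE 0.91, adjusted p = 0.705), Igkc by 0.59 (SE 0.74, adjusted p = 0.636) and Jchain by 0.56 (SE 0.76, adjusted p = 0.662). The smallest p of a member was that of Ighg1, at a log2 fold change of 1.27 (SE 0.52, adjusted p = 0.184). Without MSI tumour MSI free 1 the fold change of Ighg1 was 0.73. All 11 constant genes tested had a positive fold change, from 0.29 (SE 0.58) for Ighg3 upward, and Iglc3 had 1.25 (SE 0.64, adjusted p = 0.280). Fcer2a, the low-affinity IgE receptor of follicular B cells, had 1.04 (SE 0.53, adjusted p = 0.284).

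Among the 11 libraries poor in skeletal muscle transcripts, fitted with an additive model, the direction of several members turned. Igha was then at -0.16, Igkc at -0.23, Ighm at -0.04 and Ighd at -0.03 in MSI against CIN tumours, and 68 of 148 tested members were positive. The libraries left out were mostly CIN tumours, among them both of CIN tumours given MSI micronuclei. They included both libraries with the lowest immunoglobulin shares, and the 11 are not balanced in DNA kind. With the mean colon epithelium level as a covariate 65 of 115 members were positive, with a median of 0.18. The matching counts over all genes are not reported here for either fit.

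Among the variable genes with the smallest p in this comparison, Ighv3-8 and Ighv7-1 were sparse. Ighv8-12 had a p between theirs, with a log2 fold change of 3.12 (SE 1.295, edgeR adjusted p = 0.196). It held 53 counts in MSI tumour CIN free 2, where it led the heavy chain. Ighv3-8 had 0, 10, 2, 16, 0, 4, 0 and 32 counts in the libraries of MSI tumours, in the order of the groups given at the start, and 9 in CIN tumour CIN micronuclei 2 and 0 in the other CIN tumour libraries. Its adjusted p was 0.197. Ighv7-1 had 2, 16, 0, 24, 2, 19, 0 and 6 counts in MSI tumours and 0, 1, 0, 3, 0, 0, 0 and 7 in CIN tumours (adjusted p = 0.188). Each tumour type thus held libraries with and without counts of Ighv3-8 and Ighv7-1. Both passed in the fit with a replicate block over all libraries (edgeR adjusted p = 0.0469 for Ighv3-8 and 0.0271 for Ighv7-1), in which 9.47% of all genes passed. With the block set within each tumour type 0 members and 18.3% of all genes passed.

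Genes of antibody handling outside the members were read beside the 5.8% of all genes called in this comparison. Of the fixed lists, 0 of 15 B cell genes, 0 of 11 tested plasma cell genes, 0 of 9 tested follicle genes and 0 of 10 T cell genes passed, and 1 each of 8 germinal centre, 11 tested IgA support and 7 tested antibody receptor genes did. No listed gene passed in the other 5 comparisons. Fcgrt, the receptor that protects IgG from breakdown, was 44.2 to 67.4 CPM in MSI tumours and 31.8 to 52.0 CPM in CIN tumours and rose by 0.53 log2 units (SE 0.12, edgeR adjusted p = 0.0289). Il6, a cytokine that sustains plasma cells and has many other sources, was 0.0666 to 1.62 CPM in MSI tumours and 1.42 to 39.8 CPM in CIN tumours. It fell by 3.53 log2 units (SE 0.55, edgeR adjusted p = 0.00509). Mybl1, a transcription factor of germinal centre B cells and of other dividing cells, fell by 0.93 (SE 0.24, edgeR adjusted p = 0.0451), with 5.60 to 21.8 CPM in MSI tumours and 18.6 to 40.7 CPM in CIN tumours.

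The DNA given to the dendritic cells likewise called no member. For MSI against CIN DNA edgeR called 0 of 115 members and 0% of all genes, and DESeq2 0 members and 0% of genes. At an unadjusted p below 0.05 there were 3 members and 209 of all 18777 genes with edgeR. With DESeq2 there were 6 members and 249 genes. Igha differed by -0.46 (SE 0.90) and Igkc by -0.46 (SE 0.74). Of the 115 members 36 were positive (31.3%), beside 7463 of all 18777 genes (39.75%), with medians of -0.52 and -0.03. The Igha value turned to 0.49 without MSI tumour CIN micronuclei 2 and was -2.62 without CIN tumour MSI micronuclei 2. For free DNA against micronuclei edgeR called 0 of 115 members and 0% of all genes, and DESeq2 called 0 members. Below an unadjusted p of 0.05 were 2 members and 148 of all 18777 genes with edgeR, and 6 members and 198 genes with DESeq2. By form 81 members were positive (70.43%), beside 9463 of all 18777 genes (50.4%), with medians of 0.48 and 0.00. Igha differed by 0.19 (SE 0.90), and with 1 library left out at a time this ran from -0.05 without CIN tumour MSI micronuclei 1 to 2.37 without CIN tumour MSI micronuclei 2, and was also below 0 without MSI tumour CIN micronuclei 1 (-0.04) and without CIN tumour MSI free 1 (-0.01). Ighg2c had the largest difference of the constant genes by form, 1.00 (SE 0.46, unadjusted p = 0.0552 and adjusted p = 1).

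The interactions asked whether the effect of DNA source depended on tumour, the effect of DNA form on tumour, and the effect of DNA form on DNA source. edgeR and DESeq2 called no member in any of the 3. edgeR called 0% of all genes in each, and DESeq2 0.0107% by tumour and source, 0% by tumour and form and 0.00533% by source and form. By tumour and source 24 members and 285 of all 18777 genes had an unadjusted p below 0.05 with edgeR. With DESeq2 33 members and 366 genes did. In the edgeR fit 110 of 115 members were positive, beside 8308 of all 18777 genes, with medians of 1.38 and -0.02. A positive value there means that MSI DNA exceeded CIN DNA by more in MSI than in CIN tumours. Igha had 0.92 (SE 0.91), which was 0.62 without MSI tumour MSI micronuclei 2, 1.87 without MSI tumour CIN micronuclei 2 and 3.07 without CIN tumour MSI micronuclei 2. Ighg2c had 1.42 (SE 0.47, unadjusted p = 0.0112, adjusted p = 0.9999). Without CIN tumour MSI micronuclei 1, 141 of 149 tested members were positive. By tumour and form 1 member and 159 genes had an unadjusted p below 0.05 with edgeR, and 2 members and 204 genes with DESeq2. With edgeR 34 members were positive, beside 8693 of all 18777 genes, with medians of -0.43 and -0.01. By source and form 25 members had an unadjusted p below 0.05 with edgeR. With DESeq2 36 members and 484 of all 18777 genes did. With either tool this was a larger share of the members than of all genes. With edgeR 101 members were positive, beside 9715 of all 18777 genes, with medians of 1.41 and 0.01. Members share libraries and cells and are not independent of each other.

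The source by form interaction had its smallest member p at Ighg2c, 2.01 (SE 0.47, edgeR unadjusted p = 0.0014, adjusted p = 0.862), followed among constant genes by Ighg1 with 2.11 (SE 0.53, unadjusted p = 0.00226, adjusted p = 0.862). Interactions are halved, on the scale of a mean difference. A positive value here means that free DNA exceeded micronuclei by more with MSI than with CIN DNA. The Ighg2c levels behind it were 16.1, 5.70, 1.04 and 5.09 CPM with MSI free DNA and 1.65, 2.33, 0.266 and 0.239 CPM with MSI micronuclei. With CIN free DNA they were 0.647, 1.27, 1.42 and 0.744 CPM, and with CIN micronuclei 0.498, 2.68, 1.84 and 3.51 CPM. All 4 libraries of a DNA kind are given here with the 2 MSI tumours before the 2 CIN tumours. The result failed adjustment over all genes. Igha had 0.95 (SE 0.91) in the same comparison and Igkc 0.94 (SE 0.75). The Igha value was 0.01 without MSI tumour CIN micronuclei 2 and 3.12 without CIN tumour MSI micronuclei 2.

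**Figure D4:**
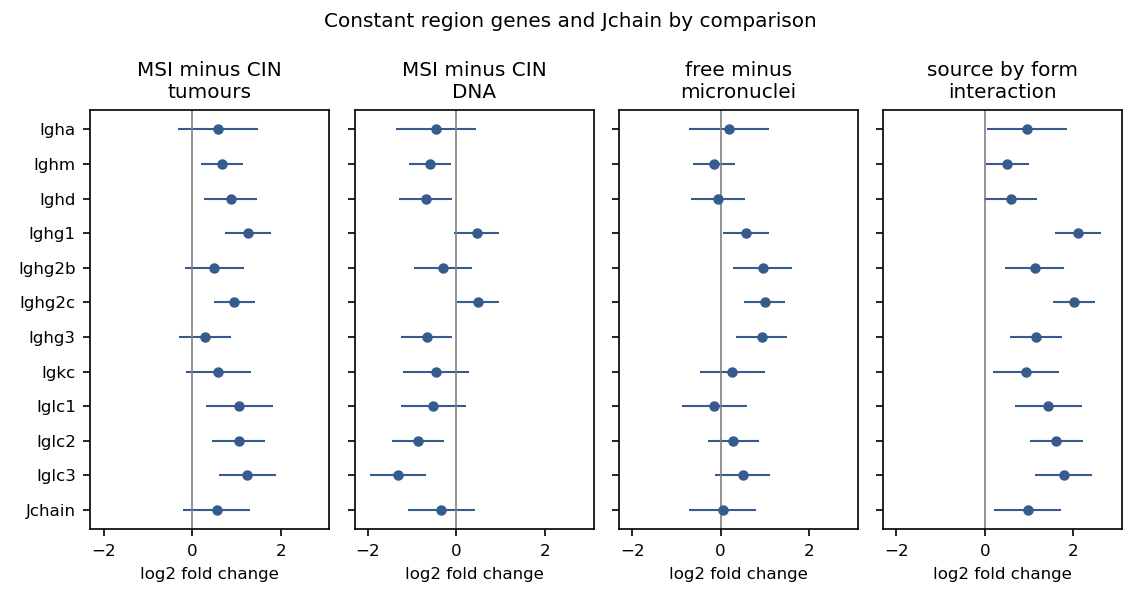
Log2 fold changes of 11 constant region genes and Jchain with their standard errors (bars), for MSI minus CIN tumours, MSI minus CIN DNA, free DNA minus micronuclei, and the source by form interaction. No gene shown passed the test in any panel, and Ighg1 (2.11) and Ighg2c (2.01) stand farthest from 0 in the last.

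Counts on variable genes show how widely the germline variable genes were used, not how many rearrangements contributed. Reads were counted on germline genes, so clones themselves cannot be counted. Of the 115 heavy chain variable genes 97 had counts, of the 104 kappa genes 88, and all 3 lambda genes. The 5 most abundant heavy chain genes held 23.1% of heavy chain variable counts and the 5 most abundant kappa genes 24.7%. By family, Ighv1 held 52.2% of the heavy chain counts from 49 genes with counts, Ighv5 9.91%, Ighv3 5.96% and Ighv6 4.57%. Among kappa families Igkv1 held 17.0%, Igkv4 15.8% and Igkv6 12.2%.

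The leading gene differed between libraries. Ighv1-26 led the heavy chain in 4 libraries, with its largest share of 12.4% (Wilson interval 10.7% to 14.3%) in MSI tumour MSI free 2. Ighv1-64 took 14.3% (12.3% to 16.5%) in MSI tumour CIN micronuclei 2, against a median of 2.27% over the libraries with at least 80 heavy chain variable counts. In all, 11 different heavy chain genes led at least 1 library. The others were Ighv5-17 in MSI tumour MSI micronuclei 2 and CIN tumour MSI free 2, Ighv7-3 in CIN tumour MSI micronuclei 2 and CIN tumour CIN micronuclei 1, and Ighv9-3, Ighv8-12, Ighv1-18, Ighv14-2, Ighv6-6, Ighv3-6 and Ighv1-55 in 1 library each.

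Igkv1-110 led kappa in 4 libraries and reached 21.3% (15.0% to 29.2%) in MSI tumour CIN free 1, where 127 kappa variable counts were available. Igkv10-96 led in 3, with up to 10.4% in CIN tumour CIN micronuclei 2. Igkv1-135 led both MSI tumour MSI micronuclei 2 (8.18%) and MSI tumour CIN micronuclei 2 (13.2%), against a median of 2.73%. The remaining leaders were Igkv1-117, Igkv9-124, Igkv15-103, Igkv8-19, Igkv8-27 and Igkv12-46 in 1 library each, and Igkv6-23 led none despite ranking next after Igkv1-135. CIN tumour MSI micronuclei 1 had 0 kappa variable counts, which allows a share of up to 2.595e-05% of its total, and 5 heavy chain variable counts, all on Ighv6-6. In lambda, Iglv1 led 14 libraries and Iglv2 led MSI tumour CIN micronuclei 1 with 6 of 10 counts and CIN tumour MSI free 1 with 48.9% (40.8% to 57.1%). Over the libraries with at least 80 lambda variable counts the median share was 79.8% for Iglv1 and 5.29% for Iglv3.

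**Figure D5:**
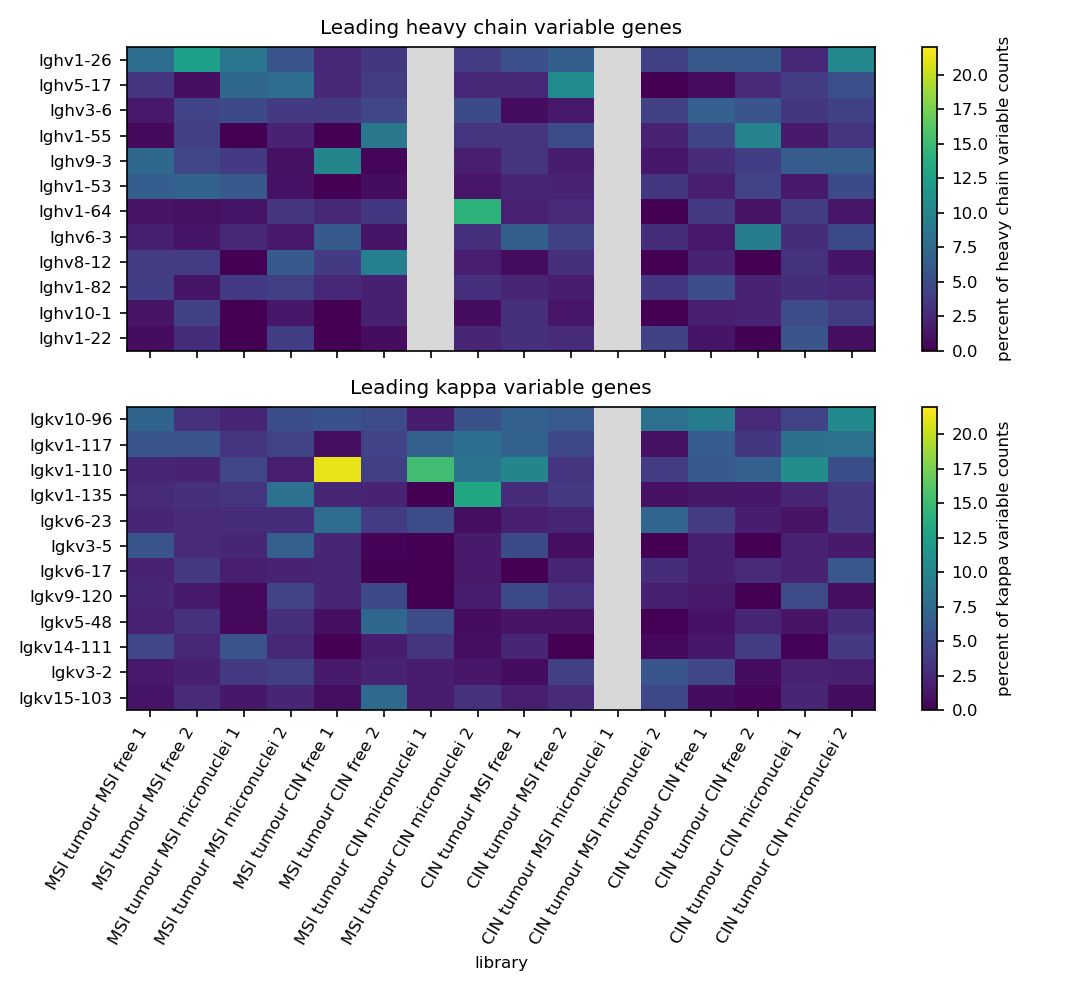
Share of heavy chain (top) and kappa (bottom) variable counts held by the 12 most abundant genes of each, in percent by colour, for the 16 libraries with MSI tumours first. Grey columns are libraries with fewer than 50 variable counts, and the brightest cell is Igkv1-110 in MSI tumour CIN free 1 at 21.3%.

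To compare diversity, each library was reduced by calculation to 80 variable counts, which left out MSI tumour CIN micronuclei 1 and CIN tumour MSI micronuclei 1. The effective number of genes, the exponential of the Shannon entropy, was then 27.0 ± 2.49 for the heavy chain in MSI tumours and 25.98 ± 3.76 in CIN tumours (SD, n = 7 each). For kappa it was 27.8 ± 4.53 in MSI tumours and 26.2 ± 2.16 in CIN tumours (n = 7 each). Both differences were below the spread between libraries. The lowest heavy chain value was 18.7 in CIN tumour MSI micronuclei 2 and the highest 29.7 in CIN tumour CIN free 1. For kappa they were 19.9 in MSI tumour CIN free 1 and 33.1 in MSI tumour MSI free 2. By DNA, kappa was 28.5 ± 3.44 with MSI DNA and 25.4 ± 3.04 with CIN DNA (n = 7 each), again about the size of 1 SD.

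Usage of variable genes in the 2 libraries of a group was only slightly more alike than in libraries of different groups. Morisita's index is about 1 for 2 libraries drawn from the same usage. Its median was 0.692 over 6 pairs within groups and 0.610 over 85 pairs between groups for the heavy chain. For kappa the medians were 0.660 and 0.635, and the ranges of the 2 kinds of pair overlapped in both. Many variable genes are near copies: 91 of 115 heavy chain and 78 of 104 kappa genes share at least 1 window of 50 bases with another member, with a median of 80.8% and 78.2% of windows unique. Their counts depend on how reads with several matches were treated, a setting not given in the labels, and values of single variable genes are uncertain for that reason. The constant genes Igha, Ighm, Ighd and Igkc share no window.

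Joining segments, which supply the last part of the variable region, are too short to be counted well. The 5 kappa segments had 25, 38, 49, 48 and 78 counts over all libraries, for Igkj1 to Igkj5. Capitals mark the phenylalanine and glycine motif of the J region (codons TTC, GGN, NNN and GGN in turn), found on the given strand in 4 of the 5, all but Igkj3, with 3 shown.
Igkj1 (chr6:70722562-70722599, plus strand): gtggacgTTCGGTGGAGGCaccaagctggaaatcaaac
Igkj3 (chr6:70723223-70723260, plus strand): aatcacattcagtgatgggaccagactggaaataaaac
Igkj5 (chr6:70723886-70723923, plus strand): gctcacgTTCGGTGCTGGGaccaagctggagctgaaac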

How the data were processed

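The authors deposited counts of reads per gene for 16 libraries. The submitters' processing notes list fastp, HISAT2 2.0.5, featureCounts 1.5.0-p3 and GRCm39, with no role stated, but the coordinates of all 268 members equal those of GENCODE M21 on GRCm38, which are used. Strand and multiple-match settings are not given in the sources used here. Of the columns 4 matched no sample and were not used. Members, gene lists, comparisons and the rule for named genes were chosen with earlier results of these data known. The rule names every constant gene, the 5 most abundant heavy chain and kappa variable genes and all lambda ones, the leading variable gene of each library, members or listed genes past the threshold, and 12 fixed partner genes; others were named after their values were seen. Some genes of the fixed lists are not reported here.

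From the counts, edgeR 4.0.16 in R 4.3.3 was run with TMM scaling, filterByExpr by group, 1 mean per group and robust quasi-likelihood tests, with Benjamini-Hochberg adjustment at 0.05 over all 18777 genes tested. DESeq2 1.42.0 was an alternative. CPM values use the TMM factors. Shares, entropy and correlations were computed in Python 3.11.15 with scipy 1.17.1. The fit and the reduction to equal depth were tested on simulated data. Depth was 11561955 to 17937501 counts per library. Replicates within a group differed beyond counting error (chi-square per degree of freedom 20.07 to 222.5). Sequences are from GENCODE M21 transcripts.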

Additional observations from a re-analysis of the deposited data

Results flagged for a closer look

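Single libraries stood far from the other libraries of their tumour type in 14 of the results examined over 54 sets of 7 or 8 libraries. The rule flags about 1 in 20 sets when values are normal and sets independent. Many of these measures are linked and their normality was not tested, so an excess over that rate was not shown. CIN tumour CIN micronuclei 2 stood above the other CIN tumours in the immunoglobulin share of counts (0.353%), in Igha (1927 CPM), Igkc (1085 CPM), Iglc3 (9.12 CPM) and Mzb1 (6.76 CPM). MSI tumour CIN micronuclei 1 stood apart from the other MSI tumours with an Igha share of 51.9% and an Ighm and Ighd share of 36.5% of heavy chain constant counts. CIN tumour MSI micronuclei 1 stood apart from the other CIN tumours with an Igha share of 5.06%, an Ighm and Ighd share of 81.0%, an Igha to Jchain count ratio of 0.364 and a light to heavy constant count ratio of 0.241. MSI tumour MSI free 1 was high in Ighg1 (47.2 CPM) and Ighg2c (16.1 CPM) among MSI tumours, and CIN tumour MSI free 2 in Ighg1 (21.03 CPM) among CIN tumours.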

How the results depend on the processing

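The number of members past the threshold was 0 under TMM and under median-ratio size factors, DESeq2, the additive model, the colon epithelium covariate, the 11 libraries poor in muscle transcripts and with each library left out (0 to 0 in all 6 comparisons). In the tumour effect it was 1 with no filter on low counts (Ighv1-4, with counts of 0 to 33) and 2 with the replicate block (Ighv7-1 and Ighv3-8, where 9.47% of all genes passed); with the replicate block within each tumour type it was 0. In the other comparisons the replicate block gave 0. Over all genes 5.8% passed with TMM, 12.2% with DESeq2 and 3.29% with no filter in the tumour effect. The shares under median-ratio size factors, the additive model, the colon epithelium covariate and the fits with libraries left out are not reported here. The 0 members in those fits cannot be set beside all genes. The replicate numbers are not stated to mark a pairing. Differences between replicates 1 and 2 correlated above 0.1 in 16 of 28 pairs of groups (-0.539 to 0.796), at 0.396 to 0.796 within MSI tumours and at -0.326 to 0.38 within CIN tumours, so same-numbered libraries deviated together in MSI tumours but not over all groups.

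With the 11 libraries the direction reversed in the tumour effect of Igha (-0.16), Igkc (-0.23), Ighm (-0.04), Ighd (-0.03) and Jchain (-0.13), the source effect of Igha (0.16) and the form effect of Igha (-0.59); the additive model of all libraries reversed Igha by form (-0.08). The 11 libraries include none of CIN tumours given MSI micronuclei. The cause was not tested. Without MSI tumour CIN micronuclei 2, Igha (-0.35), Igkc (-0.13) and Jchain (-0.29) reversed in the tumour effect and Igha (0.49) in the source effect. Igha by form reversed to -0.04 without MSI tumour CIN micronuclei 1, to -0.05 without CIN tumour MSI micronuclei 1 and to -0.01 without CIN tumour MSI free 1. Without CIN tumour MSI micronuclei 2, which leaves a library nearly without these transcripts alone in its group, Igha was 2.75, -2.62 and 2.37 in the tumour, source and form effects, and Igkc 1.97 and Jchain 1.86 in the tumour effect. Of 326 values of single genes under alternatives none passed the threshold (lowest adjusted p = 0.0667).

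With each library left out, the immunoglobulin share differed by 0.00222 to 0.0525 percentage points between MSI and CIN tumours, -0.0391 to 0.00957 between MSI and CIN DNA and -0.0294 to 0.0209 between free DNA and micronuclei. The tumour difference was -5.73 to 9.53 points for the Igha share, -1.89 to -0.852 for the kappa share, and -0.173 to 1.79 heavy chain and 0.699 to 2.89 kappa genes in effective number. Apart from fits with a library left out, the other 55 values at the level of a comparison stayed close to the main value. They kept the number of members past the threshold, or moved by less than the SD within groups, whatever their sign. Of the values of single genes 94 kept their direction and their side of the threshold. Depth limits joining and diversity segments (375 and 3 counts in all) and variable genes, with 80 to 1468 heavy chain counts in the 14 libraries compared.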
